A study of Mus musculus with 30 samples.

Results

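The 10 genes described here mark blood vessel lining or carry leukocyte adhesion at the vessel wall: Pecam1, Cdh5, Kdr, Flt1, Emcn and Esam, and the adhesion molecules Vcam1, Icam1, Selp and Sele. They were chosen by gene symbol, and all 10 were found among the 55401 genes of the deposited tables. RNA had been sequenced from mouse tumours of 4T1-GFP cells, a mammary carcinoma line carrying green fluorescent protein, in 30 libraries and 6 groups of 5. Tumour-bearing mice had received C269, an antibody against extracellular NAMPT, or a control IgG1 (CTRL); the dose of C269 was 2.5 mg/kg, given 2 times per week over 1 month. From each treatment the sorted 4T1-GFP cells, the CD8+ T cells and the CD4+ T cells were profiled, the T cells after isolation with magnetic beads. The groups are called 4T1 C269, 4T1 CTRL, CD8 C269, CD8 CTRL, CD4 C269 and CD4 CTRL, all with the genotype label wild-type. The labels used here give neither the strain nor the age of the mice, and do not state whether each of the 5 samples of a group is its own animal; p-values therefore cover the spread between these samples, which may be technical.

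Endothelial cells line blood vessels, and VE-cadherin and PECAM-1 hold their junctions together while VEGF receptors on their surface receive growth signals. Leukocytes leave the blood in steps: selectins slow them on the vessel wall, and ICAM-1 and VCAM-1 then bind their integrins and hold them. Several of these genes are also used outside vessels, such as Pecam1 and Icam1 in leukocytes, Selp in platelets, and Vcam1 in macrophages and stromal cells, so their RNA alone does not mark endothelium. In tumours, the adhesion molecules are known as one of the controls on T cell entry.

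Neither the 4T1 nor the T cell libraries were of 1 cell type by their RNA. Counts assigned to genes came to between 2005579 and 5176494 per library. The summed level of 10 T cell genes lay between 12.8 and 207 CPM (counts scaled to a fixed library total of gene counts) in 4T1 CTRL libraries, between 3623 and 4670 CPM in CD8 CTRL libraries and between 1154 and 2607 CPM in CD4 CTRL libraries. The summed level of 10 epithelial genes, however, was 237 to 606 CPM in 4T1 CTRL libraries and 222 to 347 CPM in CD4 CTRL libraries, and 10 fibroblast genes together reached 3385 to 55288 CPM in 4T1 CTRL libraries. Libraries 9 and 10 of the 4T1 C269 group stood apart from the other 28. They held Epcam at 1148 and 1205 CPM, where the others had 1.84 to 184 CPM, and Xist, the RNA of the silenced X chromosome, at 0.193 to 0.449 CPM, where the others had at least 528 CPM. Ddx3y, a gene of the Y chromosome, was at 75.2 and 84.2 CPM there and had no count in the others. Muc2, an intestinal mucin gene, was at 4408 and 5348 CPM in the pair and at most 10.6 CPM in the others, and Ptprc, the pan-leukocyte gene CD45, at 55.6 to 73.0 CPM where the others had at least 253 CPM. The main results for 4T1 C269 are therefore given with and without them.

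Across the members, Icam1, Vcam1 and Pecam1 carried most of the signal, and the genes closest to an endothelial identity were near the limit of detection. Per kilobase of exon, Icam1 had the highest mean level of the 10 in each of the 6 groups, with 25.1 ± 5.28 CPM per kb in 4T1 CTRL, 38.4 ± 6.55 in CD8 CTRL and 23.01 ± 4.12 in CD4 CTRL (SD, n = 5 each). Vcam1 followed in 4T1 CTRL at 17.8 ± 7.60 CPM per kb, and Pecam1 in CD8 CTRL at 13.9 ± 1.74 and in CD4 CTRL at 16.1 ± 3.07 (SD, n = 5 each). Vcam1 came next in CD8 CTRL at 3.79 ± 1.497 CPM per kb. The other 7 members had group means between 0.0265 and 4.23 CPM per kb. Neighbours in this order overlapped in their libraries in 4T1 CTRL (Icam1 with Vcam1, and Vcam1 with Pecam1) and in CD4 CTRL (Icam1 with Pecam1, and Pecam1 with Vcam1), and the 3 genes did not overlap in CD8 CTRL.

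In the CD8 CTRL libraries Esam and Sele were counted in single reads. Over its 5 libraries Esam had 7 counts in CD8 CTRL and 1 count in CD8 C269, and Sele had 6 in CD8 CTRL. Cdh5, which encodes VE-cadherin, averaged 4.24 ± 2.81 CPM in the 4T1 libraries of control tumours, 2.26 ± 1.16 CPM in the CD8 libraries and 6.82 ± 2.05 CPM in the CD4 libraries (SD, n = 5 each). Of 28 other endothelial genes listed beside the members, Cldn5, Aplnr, Robo4 and Myct1 had no count in any CD8 library of either treatment. In the 4T1 CTRL and CD4 CTRL groups these 4 genes averaged between 0.27 and 1.68 CPM. Cldn5, Erg and Nos3 were at 0 in 3 of 5 libraries of 4T1 CTRL. At this depth a difference in such genes is not detectable unless it is large.

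**Figure D1:**
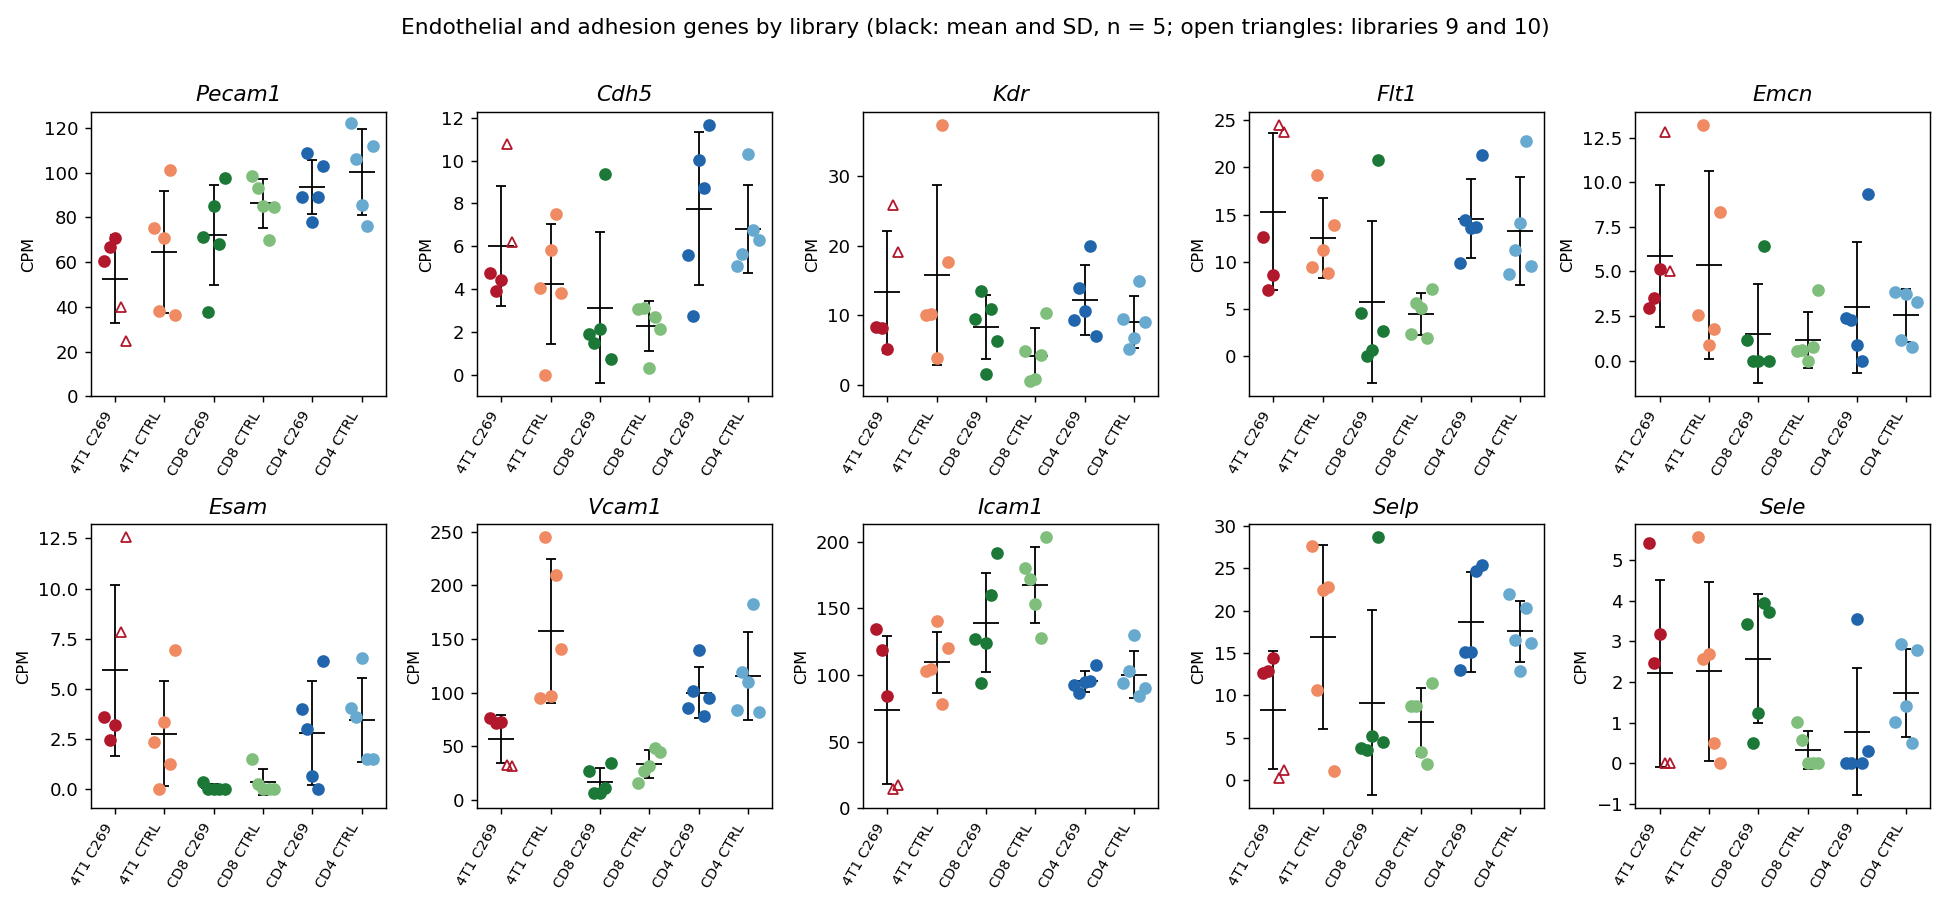
Level of each of the 10 genes in CPM (vertical axes, linear, one scale per gene) in the 30 libraries, by group (horizontal axes). Points are libraries, black bars are the mean and SD of 5, and open triangles are libraries 9 and 10. Icam1 is highest in the CD8 groups, Vcam1 lowest there apart from the triangles, and the 2 triangles lie below all other libraries for Icam1.

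Within control tumours, Vcam1, Flt1 and Icam1 passed the test between CD8 libraries and each of the other 2 populations, and Kdr passed between 4T1 and CD8. Between the 4T1 and CD8 libraries 4 of 10 members passed (edgeR quasi-likelihood test, adjusted p under 0.05), against 40.6% of the 13201 genes tested. Vcam1, Flt1 and Kdr were higher in 4T1 and Icam1 was lower, where 22.7% of all genes were called higher and 17.9% lower. The members' share is thus that of genes in general. Between CD8 and CD4 libraries 3 of 10 passed, Icam1 higher and Vcam1 and Flt1 lower in CD8, against 12.6% of all genes (3.47% higher, 9.09% lower). Between 4T1 and CD4 libraries edgeR and DESeq2 each called 0 of 10 members, against 12.7% and 18% of genes, and 1 member, Pecam1, had an unadjusted p under 0.05 by edgeR, as did 27.3% of genes. DESeq2 called 8 members in 4T1 against CD8 (44.6% of genes) and 4 in CD8 against CD4 (16.9%), and a fit of all 30 libraries called 2 (32.1%) and 1 (7.01%). In bulk RNA such as this, fewer cells of a type and less RNA per cell cannot be told apart. The 3 comparisons share their libraries, so they are not independent of each other. How many of all genes separate fully between 2 control populations was not counted, so the separations given below have no such share beside them.

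Of the 6 junction and receptor genes, the VEGF receptors were those that passed between control populations in the main edgeR fit. Flt1, which encodes VEGFR1, a receptor that binds VEGF-A and placental growth factor and is also found on monocytes, is at chr5:147561604-147726011 on the minus strand (GRCm38). It had 9.41, 19.2, 11.2, 8.78 and 13.9 CPM in the 4T1 CTRL libraries, 2.30, 5.66, 5.09, 1.92 and 7.15 CPM in the CD8 CTRL libraries and 8.66, 11.3, 14.1, 22.8 and 9.59 CPM in the CD4 CTRL libraries. All 4T1 and all CD4 values lay above all CD8 values. Flt1 was higher in 4T1 than in CD8 by 1.49 ± 0.42 on the log2 scale (SE; edgeR adjusted p = 0.0091) and lower in CD8 than in CD4 by a log2 fold change of -1.48 ± 0.42 (edgeR adjusted p = 0.0255). The second call was lost on leaving out library 13, 14, 21 or 24 and with no count filter (edgeR adjusted p = 0.056). Both were lost in a fit of all 30 libraries (edgeR adjusted p = 0.090 and 0.196).

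Kdr, which encodes VEGFR2, the main signalling receptor for VEGF-A in endothelium, had 10.1, 10.2, 3.81, 37.4 and 17.7 CPM in the 4T1 CTRL libraries, 4.86, 0.566, 0.898, 4.23 and 10.4 CPM in the CD8 CTRL libraries and 9.42, 5.19, 6.79, 15 and 9.08 CPM in the CD4 CTRL libraries. The 4T1 and CD8 libraries overlapped. Its log2 fold change was 1.89 ± 0.66 in 4T1 over CD8 (SE; edgeR adjusted p = 0.0292). Without library 4, the highest, it was 1.35 with an edgeR adjusted p of 0.116, and the call was also lost without library 22, 23 or 24.

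The remaining junction and surface genes of endothelium did not pass in any pair of control populations in the main edgeR fit of all 15 libraries. Esam, an adhesion molecule of tight junctions that platelets also carry, had log2 fold changes of 2.76 ± 1.08 in 4T1 over CD8 (SE; edgeR adjusted p = 0.051) and -2.94 ± 1.08 in CD8 over CD4 (edgeR adjusted p = 0.088). Leaving out library 21, which held 6 of the 7 counts of Esam in CD8 CTRL, brought both past the threshold (edgeR adjusted p = 0.0111 and 0.0250), and DESeq2 called both (adjusted p = 0.0216 and 0.0361). The first also passed without library 2 or 4 (edgeR adjusted p = 0.0226 and 0.0495). With RLE scaling of all 15 control libraries it passed as well (2.78, edgeR adjusted p = 0.0491). Emcn, a mucin-like surface protein of venous and capillary endothelium, had 2.17 ± 0.94 in 4T1 over CD8 and Cdh5 had 0.94 ± 0.71 (log2 fold change ± SE; edgeR adjusted p = 0.076 and 0.310). Without library 25 Emcn was 3.42 and passed (edgeR adjusted p = 0.0152), and DESeq2 called Emcn (adjusted p = 0.0335) but not Cdh5. Pecam1, present on T cells and myeloid cells as well as endothelium, had log2 fold changes of -0.54 ± 0.25 in 4T1 over CD4 and -0.40 ± 0.25 in 4T1 over CD8 (SE; edgeR adjusted p = 0.173 and 0.215). Its libraries overlapped in all 3 pairs of control populations.

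The immunoglobulin-type adhesion molecules went opposite ways. Vcam1, which binds the integrin VLA-4 on leukocytes and is at chr3:116109949-116129688 on the minus strand (GRCm38), had 94.9, 245, 97.2, 209 and 141 CPM in the 4T1 CTRL libraries, 16.1, 26.6, 32.04, 48.9 and 44.3 CPM in the CD8 CTRL libraries and 84.3, 119, 109.8, 183 and 81.5 CPM in the CD4 CTRL libraries. No CD8 value reached the lowest 4T1 or CD4 value. The log2 fold change was 2.22 ± 0.31 in 4T1 over CD8 (SE; edgeR adjusted p = 3.1e-05) and -1.70 ± 0.30 in CD8 over CD4 (edgeR adjusted p = 0.00104). Both calls held on leaving out each library in turn, with log2 fold changes from 2.04 to 2.36 and from -1.85 to -1.52.

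Icam1, the ligand of the integrin LFA-1 and a gene that activated lymphocytes also express, is at chr9:21015985-21028817 on the plus strand (GRCm38). It had 103, 105, 140.4, 78.3 and 121 CPM in the 4T1 CTRL libraries, 180.4, 172, 153, 128 and 204 CPM in the CD8 CTRL libraries and 93.96, 103, 130.2, 84.3 and 90.6 CPM in the CD4 CTRL libraries. The CD8 libraries were the highest, with 1 CD4 and 1 4T1 library above the lowest of them. Icam1 was higher in CD8 than in CD4 by 0.82 ± 0.21 on the log2 scale (SE; edgeR adjusted p = 0.0135), a call kept on leaving out each library in turn, and was lost in the fit of all 30 libraries (edgeR adjusted p = 0.239). In 4T1 over CD8 its log2 fold change was -0.58 ± 0.21 (SE; edgeR adjusted p = 0.0320). That call was lost without library 1, 2, 4, 21, 22 or 25, and in the fit of all 30 libraries (edgeR adjusted p = 0.219).

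The selectins were low and did not pass by edgeR with all 15 control libraries. Selp, the selectin stored in endothelial and platelet granules, averaged 16.9 ± 10.8 CPM in 4T1 CTRL libraries, 6.83 ± 4.04 CPM in CD8 CTRL libraries and 17.5 ± 3.58 CPM in CD4 CTRL (SD, n = 5 each). The log2 fold change of Selp in CD8 over CD4 was -1.25 ± 0.58 (SE; edgeR adjusted p = 0.184). All CD4 libraries lay above all CD8 libraries for Selp, but the share of all genes separated in this way was not counted. In 4T1 over CD8 it was 1.33 ± 0.58 (SE; edgeR adjusted p = 0.076), and 1.63 without library 5 (edgeR adjusted p = 0.0062). Sele, the selectin that endothelium makes after cytokine exposure, averaged 2.26 ± 2.20 CPM in 4T1 CTRL libraries, 0.318 ± 0.464 CPM in CD8 CTRL libraries and 1.73 ± 1.08 CPM in CD4 CTRL (SD, n = 5 each). Its log2 fold change in 4T1 over CD8 was 2.66 ± 1.10 (SE; edgeR adjusted p = 0.063). It passed without library 5 (2.97, edgeR adjusted p = 0.0310) and without library 21 (3.67, edgeR adjusted p = 0.0414), and DESeq2 called Selp and Sele there (adjusted p = 0.0490 and 0.0425).

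**Figure D2:**
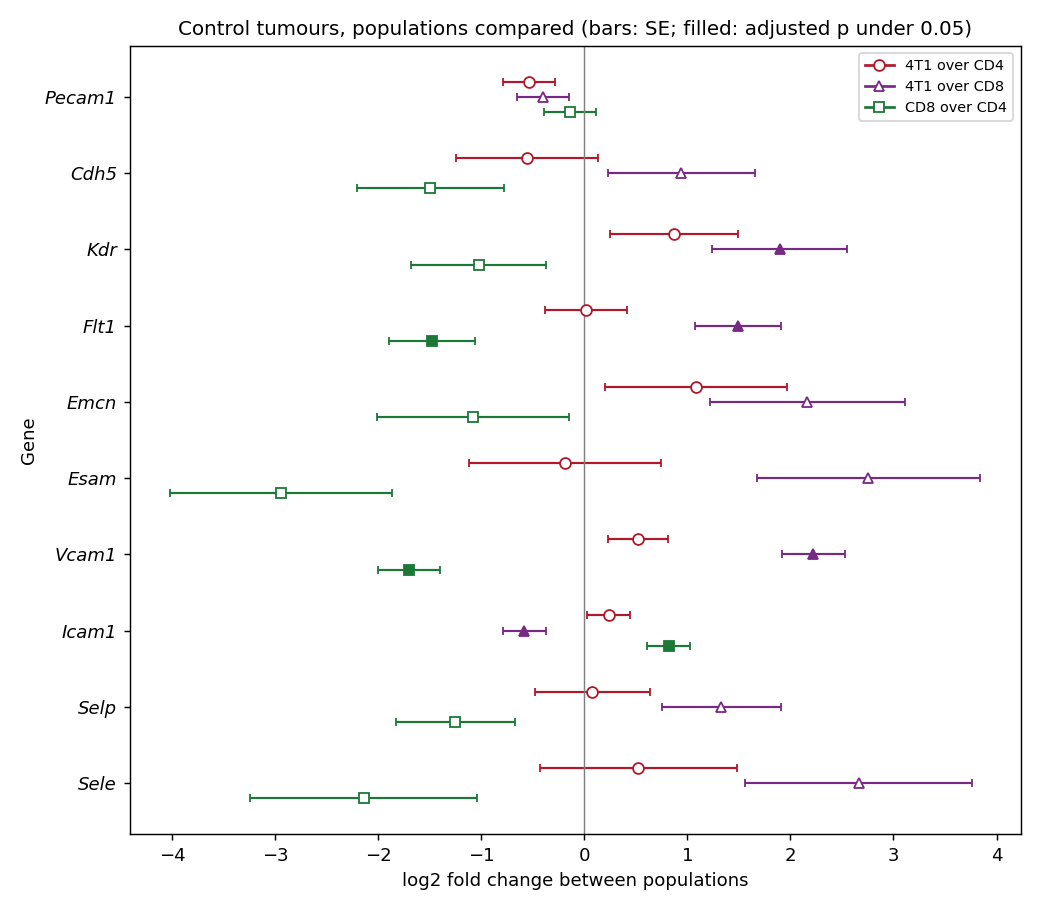
log2 fold change (horizontal axis) of each gene (vertical axis) between the populations of control tumours, with SE bars; filled symbols have an edgeR adjusted p under 0.05. Of the 10 genes, 4 are filled for 4T1 over CD8, 3 for CD8 over CD4 and 0 for 4T1 over CD4, and Icam1 lies on the other side of 0 from Vcam1 and Flt1 wherever these are filled.

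Flt1 and Icam1 passed between CD8 and CD4 in opposite directions, so the 250 bases before their start sites are shown, from RefSeq on GRCm38.p6 (6 of the 10 members had an entry). Capitals mark matches to the motifs searched, each on both strands. These were the ETS core CCGGAA, the sequence AGGAAG bound by ETS factors, the AP-1 site TGANTCA, the kB motif and TATAAA. The Flt1 stretch is chr5:147726012-147726261 on the minus strand and the Icam1 stretch chr9:21015690-21015939 on the plus strand.
Flt1: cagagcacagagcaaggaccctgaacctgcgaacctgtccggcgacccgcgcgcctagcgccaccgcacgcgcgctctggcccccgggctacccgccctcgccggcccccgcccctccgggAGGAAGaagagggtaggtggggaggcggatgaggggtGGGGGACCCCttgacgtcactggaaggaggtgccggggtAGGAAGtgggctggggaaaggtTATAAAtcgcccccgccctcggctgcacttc
Icam1: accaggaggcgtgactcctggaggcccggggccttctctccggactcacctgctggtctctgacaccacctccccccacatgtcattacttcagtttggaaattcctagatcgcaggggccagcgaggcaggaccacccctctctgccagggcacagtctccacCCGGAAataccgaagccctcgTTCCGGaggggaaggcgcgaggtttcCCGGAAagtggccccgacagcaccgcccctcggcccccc
The Flt1 stretch held AGGAAG 53 and 129 bases before the start, a kB motif 92 bases before it and TATAAA 31 bases before it. The Icam1 stretch held CCGGAA 39 and 86 bases before the start and its reverse complement 65 bases before it. It had no match to the kB motif as searched. Sites that depart from that pattern were not looked for, so a missing match does not show that a stretch lacks a kB site. Of 32851 promoters of the same length, 12% held CCGGAA, 29.5% held AGGAAG, 7.25% the kB motif, 6.75% TGANTCA and 12.4% TATAAA. Sele and Selp each held 1 AGGAAG and 1 TGANTCA match, and Emcn held 2 AGGAAG matches. Sele also held TATAAA 49 bases before its start. Kdr held 1 kB motif and 1 CCGGAA match. These are matches of letters, not sites shown to be bound.

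Some other genes of the vessel wall and its growth factors differed between the control populations as well. Unlike the members, some of them were also called in 4T1 against CD4. Of 28 other endothelial genes 12 were tested in control tumours. In 4T1 over CD8, 7 were called higher and 2 lower, against 22.7% and 17.9% of all genes. The median log2 fold change of the 12 was 2.12, where the median of all genes was 0.01. Higher genes included Eng, a TGF-beta co-receptor (2.63 ± 0.41, edgeR adjusted p = 8.8e-05), Cd34 (3.99 ± 0.86, edgeR adjusted p = 0.0014) and Plvap, a protein of endothelial pores (2.56 ± 0.63, edgeR adjusted p = 0.0038). Cd34 is also a marker of fibroblasts and blood progenitors, and Eng of stromal cells. The 2 lower genes were Icam2 (-1.28 ± 0.32, edgeR adjusted p = 0.0041), which leukocytes share, and Esm1 (-4.03 ± 0.69, edgeR adjusted p = 2.2e-04).

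Esm1, a proteoglycan secreted by endothelium under VEGF, did not follow the other endothelial genes. It averaged 0.30 CPM in 4T1 CTRL libraries, 6.61 CPM in CD8 CTRL libraries and 25.6 CPM in CD4 CTRL libraries. Its log2 fold change in 4T1 over CD4 was -5.92 ± 0.69 (edgeR adjusted p = 3.5e-05), where Cd34 was higher at 3.03 ± 0.80 (edgeR adjusted p = 0.019) and Icam2 lower at -1.07 ± 0.32 (edgeR adjusted p = 0.034). In CD8 over CD4, 4 of the 12 were called, all lower, where 9.09% of all genes were called lower. These were Eng, Plvap, Esm1 and Egfl7, a secreted vascular protein. Their log2 fold changes ran from -2.26 to -1.88.

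The VEGF and angiopoietin ligands, listed together with the vascular peptide Apln, followed the same order. All 8 of 8 passed as higher in 4T1 than in CD8 (22.7% of all genes), with a median log2 fold change of 2.93. In CD8 over CD4, 6 of 8 passed as lower (9.09% of all genes). In 4T1 over CD4 only Vegfa, the main ligand of VEGFR2, passed among the 8 (1.55 ± 0.29, edgeR adjusted p = 0.0021). There 12.7% of all genes passed in either direction. In CD8 over CD4 the 4 with the smallest p were Angpt1 (-3.21 ± 0.52, edgeR adjusted p = 5.1e-04), Apln (-3.74 ± 0.62, edgeR adjusted p = 5.5e-04), Vegfb (-1.22 ± 0.25, edgeR adjusted p = 0.0027) and Vegfc (-3.82 ± 0.79, edgeR adjusted p = 0.0033). Of the counter-receptors that leukocytes use to bind the adhesion members, 12 of 13 were tested. In 4T1 over CD8, 4 were called higher and 6 lower, against 22.7% and 17.9% of all genes. The lower ones were led by Selplg, the P-selectin ligand PSGL-1 (-2.44 ± 0.26, edgeR adjusted p = 3.5e-06), and Spn, the sialomucin CD43 (-2.05 ± 0.29, edgeR adjusted p = 3.7e-05).

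Markers of several other cell types moved in the same direction as Vcam1, Flt1 and Kdr in 4T1 over CD8. Called higher were 9 of 10 fibroblast genes, 7 of 10 macrophage genes, 10 of 10 neutrophil genes, 4 of 5 tested pericyte and smooth muscle genes and 6 of 8 tested epithelial genes. Of all genes, 22.7% were called higher there and 17.9% lower. The other fibroblast gene was called lower, as were 10 of 10 T cell genes. In CD8 over CD4, 2 of 10 fibroblast genes, 3 of 10 neutrophil genes, 3 of 5 pericyte genes and 6 of 8 epithelial genes were called lower. Of all genes, 9.09% were called lower in that comparison and 3.47% higher. Of the macrophage genes 0 of 10 were called there (0 with an unadjusted p under 0.05 by edgeR). Called higher in CD8 over CD4 were 1 epithelial gene and 3 T cell genes, with 1 T cell gene lower. Summed macrophage genes lay between 1206 and 7656 CPM in 4T1 CTRL libraries, between 657 and 1788 CPM in CD8 CTRL libraries and between 891 and 3923 CPM in CD4 CTRL. The part of these cells in the members' differences was not tested.

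C269 against CTRL was the comparison the study was built on, here asked of vascular genes that may govern T cell entry into the tumour. No member passed by edgeR in the fits within each of the 3 populations. A fit of all 30 libraries called Vcam1 in 4T1, as given below. In 4T1 libraries edgeR called 0 of 10 members and 0 of 12875 genes (0%), with 1 member and 12.1% of genes at an unadjusted p under 0.05, and 5.46% of genes without libraries 9 and 10. In CD8 libraries it called 0 of 6 tested members (0 at an unadjusted p under 0.05, against 6.63% of genes) and 1 of 10943 genes (0.00914%). In CD4 libraries it called 0 of 8 tested members (0 at an unadjusted p under 0.05, against 5.62% of genes) and 0 of 12393 genes (0%). DESeq2 called 1 member, Vcam1, in 4T1, against 2.37% of genes, and 0 members in the other populations, against 0.119% of genes in CD8 and 0.113% in CD4.

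Vcam1 was the 1 member whose groups did not overlap. It had 76.5, 71.3, 72.5, 32.8 and 32.1 CPM in the 4T1 C269 libraries, where the CTRL libraries ran from 94.9 to 245 CPM as given above. All 5 C269 libraries lay below all 5 CTRL libraries, as in 1.37% of the genes tested. Genes separated the other way are not in that share. The first 3 C269 libraries were close together, and the last 2, libraries 9 and 10, were lower still. The log2 fold change was -1.37 ± 0.36 (SE; edgeR adjusted p = 0.355, unadjusted p = 0.0030) and -0.97 ± 0.30 without libraries 9 and 10 (edgeR adjusted p = 0.809, unadjusted p = 0.0090). DESeq2 gave -1.40 ± 0.39 (adjusted p = 0.0259), and -1.02 ± 0.35 without libraries 9 and 10 (adjusted p = 0.180), where 0.611% of genes were called. The fit of all 30 libraries called Vcam1 (-1.35 ± 0.39, edgeR adjusted p = 0.0449) and 4.11% of genes. In the authors' deposited table, whose ratio is CTRL over C269, Vcam1 stands at 1.36 on the log2 scale with an adjusted p of 0.0213, where 4.5% of genes with an adjusted p are below 0.05.

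The spread of Vcam1 among the 4T1 CTRL libraries went with that of macrophage genes, and also with that of platelet genes. The 10 macrophage genes summed to 1529, 1076, 1698, 559 and 487 CPM in 4T1 C269 and to 1217, 3959, 1206, 7656 and 1992 CPM in 4T1 CTRL, in the same library order as Vcam1. The lowest Vcam1 values of CTRL, in libraries 1 and 3, stood at macrophage sums within the range of the first 3 C269 libraries, and the highest, in libraries 2 and 4, at the highest sums. The 12 platelet and megakaryocyte genes summed to 115, 796, 121, 476 and 501 CPM in 4T1 CTRL, in the same library order. In 4T1 C269 they summed to 152, 125, 140, 25.8 and 30.5 CPM. In the CD4 libraries, library 14 was the highest for both, with 183 CPM of Vcam1 and 3923 CPM of macrophage genes. Other libraries went the opposite way: library 19 had the highest macrophage sum of CD4 C269, at 2114 CPM, and its lowest Vcam1, at 78.3 CPM. In CD8 C269, library 27 had the most macrophage RNA, at 1745 CPM, with 6.48 CPM of Vcam1, and library 30 the least, at 515 CPM, with 34.3 CPM of Vcam1. Over 28 libraries, libraries 9 and 10 left out, the deviations of Vcam1 and of the macrophage sum from their group means had a Pearson r of 0.40, a description in which each pair of values shares a library and its depth. By the same measure Vcam1 had an r of 0.55 with the VEGF and angiopoietin ligands, 0.43 with platelet genes and -0.48 with B cell genes. In 4T1, 9 of 10 macrophage genes had lower fitted values in C269, 0 of them called and 5 at an unadjusted p under 0.05; without libraries 9 and 10 it was 9 of 10 again, 0 called and 3 at an unadjusted p under 0.05. The part of macrophage or platelet genes in the Vcam1 difference was not tested.

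**Figure D3:**
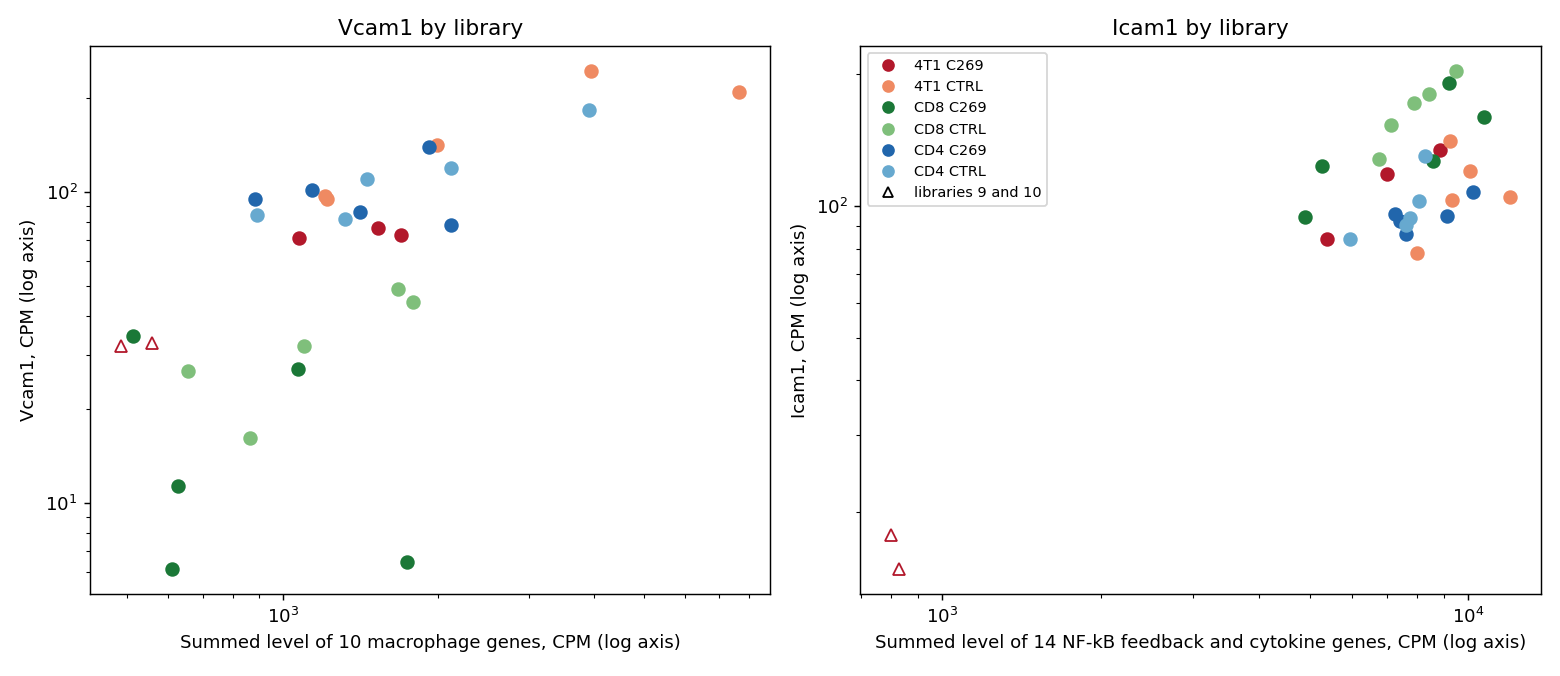
Left, Vcam1 in CPM (vertical, log axis) against the summed CPM of 10 macrophage genes (horizontal, log axis). Right, Icam1 against the summed CPM of 14 NF-kB feedback and cytokine genes, on the same kind of axes. Each point is 1 of 30 libraries, coloured by group, with libraries 9 and 10 as open triangles; the 4T1 CTRL libraries with the most macrophage RNA, at 3959 and 7656 CPM, have the most Vcam1, and the triangles lie apart from all other libraries on the right.

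In CD8 libraries Vcam1 had 26.97, 6.48, 6.12, 11.4 and 34.3 CPM under C269 and 16.1 to 48.9 CPM under CTRL. Of the 5 C269 libraries 3 lay below all CTRL libraries and 2 within their range. The log2 fold change was -0.95 ± 0.48 (SE; edgeR adjusted p = 0.749, unadjusted p = 0.066). In CD4 libraries it was -0.20 ± 0.21 (SE; edgeR adjusted p = 0.928), with 86.1, 102, 139.7, 78.3 and 94.7 CPM under C269 and 81.5 to 183 CPM under CTRL, so the groups overlapped. The difference of C269 effects on Vcam1 was -1.13 ± 0.54 for 4T1 minus CD4 (SE; edgeR adjusted p = 0.519, unadjusted p = 0.046), -0.37 ± 0.56 for 4T1 minus CD8 and -0.76 ± 0.56 for CD8 minus CD4 (edgeR adjusted p = 0.788 and 1.00), on the log2 scale. Without libraries 9 and 10 it was -0.74 ± 0.53 for 4T1 minus CD4 (SE; edgeR adjusted p = 1.00, unadjusted p = 0.177) and 0.023 ± 0.52 for 4T1 minus CD8 (edgeR adjusted p = 0.996). For the difference of C269 effects edgeR called 0 of 10 members in each pair of populations, against 0.00679%, 0.00679% and 0% of 14731 genes for 4T1 minus CD4, 4T1 minus CD8 and CD8 minus CD4. At an unadjusted p under 0.05 there were 1, 0 and 1 members, against 9.41%, 16.3% and 3.84% of genes, and 0 members in both differences with 4T1 once libraries 9 and 10 were left out.

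Icam1 in 4T1 libraries turned on libraries 9 and 10. It had 134, 118, 84.2, 14.8 and 17.8 CPM in 4T1 C269, where CTRL ran from 78.3 to 140 CPM. The first 3 C269 libraries lay within the CTRL range, and the last 2 were below all 28 other libraries of the series. The log2 fold change was -0.50 ± 0.59 with them and 0.13 ± 0.30 without them (SE; edgeR adjusted p = 0.773 and 0.964). In CD8 libraries Icam1 had 127, 94.2, 124, 160.1 and 191 CPM under C269 and 128 to 204 CPM under CTRL, and 3 of 5 C269 libraries lay below all CTRL libraries (log2 fold change -0.26 ± 0.21, edgeR adjusted p = 0.854). In CD4 libraries it was -0.10 ± 0.15 (edgeR adjusted p = 0.951).

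Libraries 9 and 10 also moved the log2 fold changes of other members in 4T1. Flt1 was at 24.5 and 23.8 CPM there and at no more than 22.8 CPM in the other 28 libraries, and Esam at 7.86 and 12.6 CPM and no more than 6.93 CPM in the others. Selp was at 0.225 and 1.16 CPM in them, with 27 of the other 28 libraries above both, and Sele had no count in either. Kdr, at 25.8 and 19.1 CPM, and Emcn, at 12.8 and 5.02 CPM, lay within the range of the other 4T1 libraries. Pericyte and smooth muscle genes summed to 1575 and 1569 CPM there and to at most 248.99 CPM in the other libraries. Without the pair, the log2 fold changes in 4T1 C269 moved to -0.29 ± 0.44 for Flt1, which was 0.32 ± 0.42 with it, to 0.11 ± 0.34 for Pecam1, which was -0.25 ± 0.37, and to -0.35 ± 0.90 for Emcn, which was 0.19 ± 0.74. Kdr moved to -0.97 ± 0.65, where it was -0.18 ± 0.59 with the pair. All of these had edgeR adjusted p of at least 0.79 with or without it.

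Among the members with middling counts, Selp and Cdh5 overlapped between treatments in every population tested. Selp had 12.6, 12.9, 14.4, 0.225 and 1.16 CPM in the 4T1 C269 libraries and 27.6, 10.6, 22.4, 22.8 and 1.04 CPM in the 4T1 CTRL libraries. The CTRL library with almost no Selp, library 5, was also the one with the most fibroblast RNA, at 55288 CPM over 10 genes, where the other 4 had 3385 to 11343 CPM. The log2 fold change of Selp in 4T1 was -0.99 ± 0.96, and -0.30 ± 0.72 without libraries 9 and 10 (SE; edgeR adjusted p = 0.709 and 0.964). In CD4 it was 0.068 ± 0.24 (SE; edgeR adjusted p = 0.983), with 13.03, 15.1, 15.1, 24.7 and 25.4 CPM under C269 and 21.9, 16.5, 12.9, 20.3 and 16.1 CPM under CTRL. Cdh5 had 5.58, 2.75, 10.01, 8.73 and 11.7 CPM in CD4 C269 and 5.09, 5.64, 10.3, 6.75 and 6.31 CPM in CD4 CTRL, a log2 fold change of 0.16 ± 0.40 (SE; edgeR adjusted p = 0.975). In 4T1 the log2 fold changes of Cdh5 and Esam were 0.49 ± 0.75 and 1.05 ± 0.86, and 0.091 ± 0.96 and 0.19 ± 1.06 without libraries 9 and 10 (SE; edgeR adjusted p from 0.646 to 0.988).

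Pecam1 had smaller standard errors in the T cell libraries than in 4T1. It had 71.04, 37.9, 85.3, 68.2 and 97.7 CPM in CD8 C269 and 70.0 to 98.8 CPM in CD8 CTRL, and its log2 fold change was -0.25 ± 0.24 (SE; edgeR adjusted p = 0.872). In CD4 it was -0.12 ± 0.16 (SE; edgeR adjusted p = 0.946), with overlapping groups. Kdr had 9.50, 13.5, 1.53, 10.9 and 6.34 CPM in CD8 C269, 2 of them above all CTRL libraries, and a log2 fold change of 0.98 ± 0.80 (SE; edgeR adjusted p = 0.854). A value that misses the threshold does not show that C269 left a gene as it was. Effects within about 2 SE of these estimates may remain compatible with the counts, a rough guide that is weaker in genes of few counts.

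Sele was the member with the most divided pattern among the T cells, at counts too low for the test in either population. In CD8 C269 it had 3.42, 0.499, 1.22, 3.95 and 3.73 CPM, and in CD8 CTRL 1.02, 0.566, 0, 0 and 0 CPM, so that 4 of 5 C269 libraries lay above all CTRL libraries. In CD4 C269 it had 0, 0, 3.56, 0 and 0.291 CPM, and in CD4 CTRL 1.02, 2.93, 1.41, 0.5 and 2.78 CPM, so that 4 of 5 C269 libraries lay below all CTRL libraries and 1 above. The groups' 5 libraries together held 32 counts in CD8 C269, 6 in CD8 CTRL, 17 in CD4 C269 and 36 in CD4 CTRL. In the fit of all 30 libraries, where Sele was tested, its C269 effect in CD8 minus that in CD4 was 3.89 ± 1.86 on the log2 scale (SE; edgeR adjusted p = 1.00, unadjusted p = 0.046).

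Emcn, Cdh5 and Esam were also too low for the test in CD8. Library 29 of CD8 C269 was the highest of its group for Cdh5 (9.39 CPM), Flt1 (20.7 CPM), Emcn (6.42 CPM) and Selp (28.7 CPM). Its 10 fibroblast genes summed to 8215 CPM, where the other 4 CD8 C269 libraries had 619 to 2958 CPM. Without this library the log2 fold change of Flt1 in CD8 was -1.16 and that of Selp -0.70, where they were 0.38 ± 0.98 and 0.43 ± 0.74 with it. The part of fibroblast RNA in these values was not tested.

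**Figure D4:**
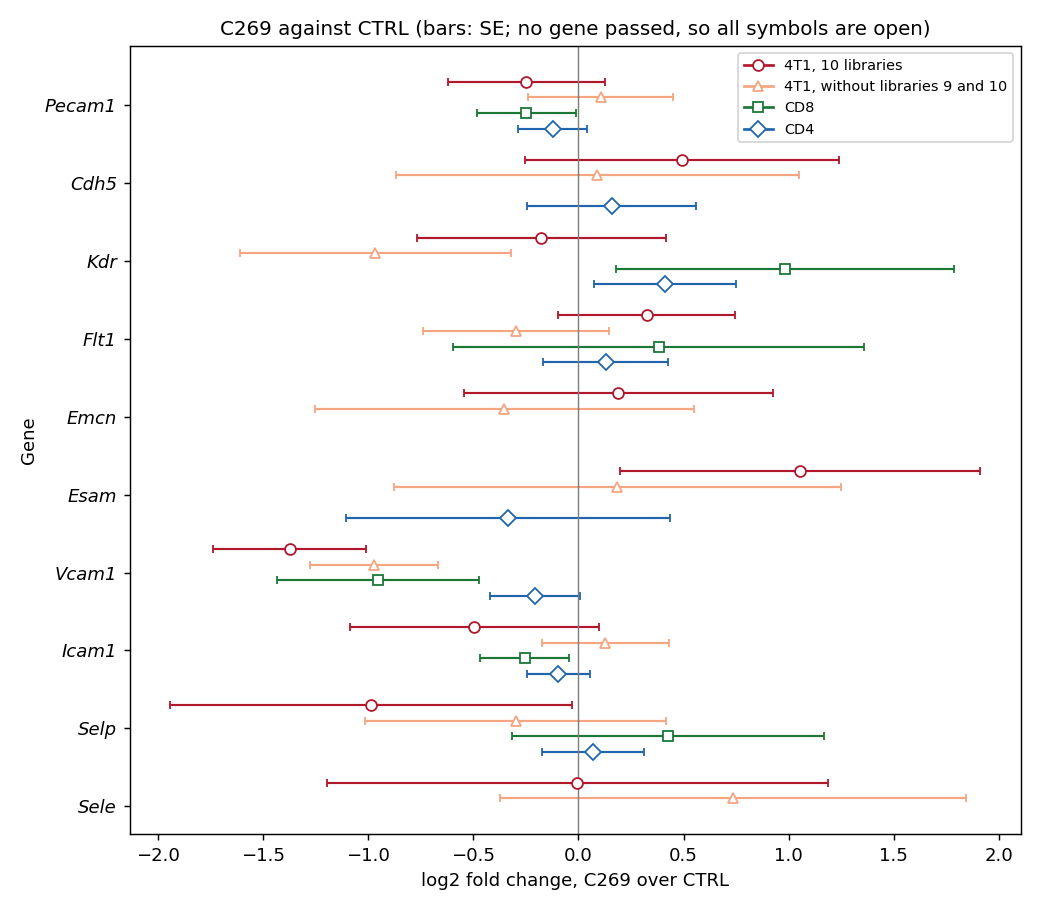
log2 fold change of C269 over CTRL (horizontal axis) for each gene (vertical axis) in 4T1 with all 10 libraries, in 4T1 without libraries 9 and 10, in CD8 and in CD4, with SE bars. Genes below the count filter of a population have no symbol there. The values for Vcam1 are -1.37, -0.97, -0.95 and -0.20, and no gene passed the threshold.

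Other vascular genes were not called under C269 either. Of 12 other vascular and leukocyte adhesion molecules 9 were tested in 4T1, 8 with higher fitted values in C269, 0 called and 4 at an unadjusted p under 0.05 by edgeR; without libraries 9 and 10 it was 6 of 10, with 0 called and 0 at an unadjusted p under 0.05. Library 9 held 3937 CPM of the 12 genes together and library 10 held 3457 CPM, where no other library exceeded 295 CPM. The 2 with the smallest p were Ceacam1, an adhesion molecule that epithelium also carries (6.78 ± 1.69, edgeR adjusted p = 0.355), and F11r, the junctional molecule JAM-A (2.18 ± 0.69, edgeR adjusted p = 0.356), and without the pair they stood at 0.77 ± 0.47 and 0.45 ± 0.44. In 4T1, 15 of the 28 other endothelial genes were tested, 10 with higher and 5 with lower fitted values, 0 called and 0 at an unadjusted p under 0.05; without libraries 9 and 10 the split was 6 higher and 9 lower. The 2 with the smallest p were Mcam (1.40 ± 0.76, edgeR adjusted p = 0.49) and Eng (-1.01 ± 0.58, edgeR adjusted p = 0.51). All 8 genes of the VEGF and angiopoietin ligand list had lower fitted values in 4T1 C269, with 0 called and 3 at an unadjusted p under 0.05 by edgeR. Their median log2 fold change was -1.42, and -0.78 without libraries 9 and 10, where 7 of 8 had lower values, against medians of all genes of 0.04 and 0.00. Angpt1, the agonist of the TIE2 receptor, and Apln, a peptide of sprouting vessels, had the smallest p (-1.84 ± 0.62 and -1.91 ± 0.71, edgeR adjusted p = 0.36 and 0.37). Among the leukocyte counter-receptors 0 of 12 were called in each population, with 0 at an unadjusted p under 0.05 in 4T1 and 1 each in CD8 and CD4. Without libraries 9 and 10, 8 of the 12 had higher fitted values in 4T1 C269, with a median log2 fold change of 0.60, 0 called and 3 at an unadjusted p under 0.05 by edgeR.

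The members did not vary together as 1 group from library to library. Over 28 libraries, deviations from the group means on the log2 CPM scale gave Pearson r between -0.25 and 0.51 for all pairs of members, highest for Pecam1 with Selp (0.51) and Flt1 with Emcn (0.50). Between Icam1 and the summed NF-kB feedback and cytokine genes r was 0.75, and between Flt1 and those genes 0.70. For Kdr the highest were the summed VEGF and angiopoietin ligands (0.63) and platelet genes (0.62). These values are descriptions over libraries that share their depth and cell makeup, and in genes of few counts a weak value carries no weight.

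Among 11434 genes averaging at least 5 CPM, those most like Icam1 by the same measure were Nfkbiz (r = 0.83), H19 (0.78), Ifrd1 (0.77), Maff (0.76) and Adam23 (0.75). Most like Vcam1 were E2f1 (0.86), Fam20c (0.84), Ppbp (0.76), Clec4n (0.75) and Rcn2 (0.75). Most like Cdh5 were Ptpn3 (0.85), Lsm1 (0.71), Fbxw8 (0.71), Fam3a (0.70) and Gnpda2 (0.69). None of the 5 genes nearest to Cdh5 was among the endothelial genes listed here. Listed genes averaging under 5 CPM were not compared, so this does not show that Cdh5 varied apart from endothelial genes.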

How the data were processed

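The 3 deposited tables hold 1 population each, with raw counts per gene from featureCounts for 10 library columns, per the file headers and the submitters' processing notes, which also name FastQC, DESeq2 and mm9; no source used here names the aligner. Gene starts matched GENCODE M21 for 99.6% of 55141 identifiers, and GRCm38 coordinates are printed. The deposited baseMean is a signal of size-factor-scaled counts by the authors, the deposited fold change is log2 of CTRL over C269, the deposited Wald statistic is a score, and the deposited p-value columns come from the authors' DESeq2. They were used only where the authors' table is named.

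Library columns carry numbers only. Each of the authors' condition sums equals exactly 1 of 252 sets of 5 columns, and the condition's number was read as the number in the sample titles. This gives each column its group but not its letter, and no header states the link outright. The 4T1 table had 5 gene names that differed from the others and were taken by identifier. The 7 ribosomal RNA features, 3.05% of counts, were left out of totals and tests. No pair of replicates agreed within sampling noise (smallest chi-square 5.19 per gene). CPM divide each count by the library's gene total.

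Tests were edgeR 4.0.16 quasi-likelihood (R 4.3.3; filterByExpr, TMM) over all genes with Benjamini-Hochberg adjustment and a threshold of 0.05: C269 against CTRL within each population (10 libraries), population pairs over the 15 CTRL libraries, and differences of effects over 30. Alternatives were DESeq2 1.42.0, RLE scaling, no filter, each library left out, libraries 9 and 10 left out, and all 30 libraries in 1 fit. The SE given for an edgeR log2 fold change is its absolute value divided by the square root of the test's F statistic, an approximation and not a model output. The scripts were tested on simulated data. Members, gene lists and rules were chosen with earlier results of these data known. All 10 members are named, with up to 4 called genes of a list, or the 2 of smallest p. Similar genes are given for Cdh5, Vcam1 and Icam1, the 5 of highest r (log2 CPM, prior count 2). The kB motif was searched as GGGRNNYYCC (R is A or G, Y is C or T, N is any base), with no mismatch allowed.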

Additional observations from a re-analysis of the deposited data

Results flagged for a closer look

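In 10 of 60 gene and group combinations, each with 5 libraries, 1 library lay far from the other 4, its gap to the nearest exceeding 0.71 of the group's range. Chance gives about 1 in 20 for normally spread values. Several of these groups are mostly zeros, where 1 library with counts stands apart by construction, so the 10 do not measure an excess. Library 29 of CD8 C269 did so for 4 genes, with 9.39 CPM of Cdh5, 20.7 CPM of Flt1, 6.42 CPM of Emcn and 28.7 CPM of Selp. It also had the highest summed fibroblast genes of its group, and the part of those was not tested. Emcn stood out in 3 further groups, at 12.8 CPM in library 9 of 4T1 C269, 9.33 CPM in library 20 of CD4 C269 and 3.93 CPM in library 25 of CD8 CTRL. Esam stood out at 0.38 CPM in library 26 of CD8 C269, which is 1 count, and at 1.54 CPM in library 21 of CD8 CTRL, which is 6 counts. Sele stood out at 3.56 CPM in library 18 of CD4 C269.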

How the results depend on the processing

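No paired analysis was possible because the library columns carry no replicate letters. Keeping ribosomal RNA in the library totals moved no member's group mean by as much as 1 SD. Esam, Sele, Emcn and Cdh5 rest on few counts per group, so small differences in them are not detectable at this depth; why their counts are low was not tested.

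Numbers of genes called depended on the test. For C269 in 4T1, edgeR called 0, DESeq2 305, DESeq2 without libraries 9 and 10 (an alternative chosen after seeing the data) 84, and edgeR on all 30 libraries 606. For CD8 the count was 1, or 162 with no filter, 13 by DESeq2 and 0 on all 30 libraries. For CD4 it was 0, or 83 with no filter and 14 by DESeq2. For the effect in 4T1 minus CD4 it was 1, or 6 with no filter, 50 by DESeq2 and 0 without libraries 9 and 10; for 4T1 minus CD8 1, or 58 with no filter and 453 by DESeq2; for CD8 minus CD4 0, or 2 by DESeq2. On all 30 libraries, control populations gave 868 genes for 4T1 against CD4 and 1032 for CD8 against CD4, where the 15 control libraries gave 1679 and 1658. Members called in 4T1 against CD8 numbered 4, or 5 with RLE scaling, 8 by DESeq2 and 2 on all 30 libraries. In CD8 against CD4 they numbered 3, or 1 on all 30 libraries. For C269 in 4T1 they numbered 0, or 1 by DESeq2 and 1 on all 30 libraries. The cause was not tested.

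Leaving out each library in turn gave 998 to 1938 genes for 4T1 against CD4 and 2 to 6 members for 4T1 against CD8. For C269 it gave 0 to 10 genes in CD4 and 0 to 1 in CD8, and for differences of effects 0 to 16 (4T1 minus CD4), 1 to 220 (4T1 minus CD8) and 0 to 1 (CD8 minus CD4).

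Sign changes were limited to log2 fold changes that passed under no setting named here. In 4T1 against CD4, Flt1 was -0.036 with no filter and -0.034 on all 30 libraries. For C269 in 4T1, leaving out libraries 9 and 10 gave, by edgeR and by DESeq2, -0.35 and -0.42 for Emcn, -0.29 and -0.34 for Flt1, 0.13 and 0.094 for Icam1, 0.11 and 0.085 for Pecam1 and 0.74 and 0.73 for Sele. Sele was also 0.016 with no filter, 0.0093 by DESeq2 and 0.018 on all 30 libraries. For 4T1 minus CD4, leaving them out gave -0.041 for Cdh5, -0.51 for Emcn, -0.39 for Flt1, 0.26 for Icam1 and 0.25 for Pecam1, and Emcn was -0.061 with RLE and -0.071 by DESeq2. For 4T1 minus CD8, leaving them out gave -0.31 for Cdh5, -0.57 for Flt1, 0.45 for Icam1 and 0.023 for Vcam1; Flt1 was -0.042 with RLE and -0.047 by DESeq2, and Pecam1 -0.0083 with RLE and -0.012 by DESeq2.

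With single libraries left out, signs also changed within these ranges. In 4T1 against CD4 they were -0.80 to 0.18 for Esam, -0.15 to 0.25 for Flt1, -0.18 to 0.82 for Sele and -0.21 to 0.38 for Selp. For C269 in 4T1 they were -0.27 to 0.78 for Emcn, -0.52 to 0.35 for Kdr and -0.74 to 0.67 for Sele. In CD8 they were -1.16 to 0.68 for Flt1 and -0.70 to 0.69 for Selp, and in CD4 -0.038 to 0.37 for Cdh5, -0.87 to 0.043 for Esam, -0.048 to 0.37 for Flt1, -0.18 to 0.025 for Icam1 and -0.073 to 0.16 for Selp. For 4T1 minus CD4 they were -0.43 to 1.10 for Emcn, -0.89 to 0.0017 for Kdr and -0.26 to 0.085 for Pecam1. For 4T1 minus CD8 they were -0.21 to 1.07 for Cdh5, -1.38 to 2.16 for Emcn, -0.24 to 1.56 for Flt1, -0.59 to 0.091 for Icam1, -0.11 to 0.24 for Pecam1 and -0.58 to 0.078 for Vcam1. For CD8 minus CD4 they were -0.69 to 0.51 for Cdh5, -2.09 to 1.42 for Emcn, -3.38 to 0.32 for Esam, -1.30 to 0.50 for Flt1, -0.30 to 0.013 for Pecam1 and -0.77 to 0.57 for Selp.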
